A study of Heterocephalus glaber and Cavia porcellus and Spalacopus cyanus with 7 samples.

Results

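RNA polymerase II starts transcription only after general factors have assembled at a promoter, and 10 genes for such factors were followed here in rodent oocytes. They were Tbp with its relatives Tbpl2 and Tbpl1, the TFIIA genes Gtf2a1, Gtf2a1l and Gtf2a2, the TFIIB gene Gtf2b, and Taf1, Taf4 and Taf7 of the TFIID complex. The genes were chosen by symbol and not by level, although earlier results of these data were known by then. All 10 had an entry among the 26623 of the naked mole-rat tables and among the 25603 of the guinea pig table.

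In most cells TFIID, built from TBP and the TAF proteins, recognises the promoter, TFIIA steadies it on the DNA, and TFIIB links it to the polymerase. In growing mouse oocytes TBPL2 stands in for TBP and works together with TFIIA at promoters that are used in the oocyte. The study came to this pair of factors through the oocyte promoter of mouse Dnmt3l, for which it proposes a TBPL2/TFIIA site. It also used published mouse data, in which Dnmt3l and its full-length oocyte start site were lower after TBPL2 knock-out. Oocyte expression of TBPL2 is reported there for every species with oocyte RNA-seq.

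That proposed site is shown first, because it is the one stretch of DNA in the study that these factors are thought to read. The sequences come from the authors' alignment of the third Aire intron, written as its reverse complement, and the alignment gives no genome coordinates. Capitals mark the 7 bases at the place of the mouse motif, which covers bases 120 to 126 of the mouse intron in this orientation, and the stretch runs from there past the mouse start site.
mouse: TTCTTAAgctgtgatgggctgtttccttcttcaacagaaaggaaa
rat: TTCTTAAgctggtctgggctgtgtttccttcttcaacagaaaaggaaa
naked mole-rat: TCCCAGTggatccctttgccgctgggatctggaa
Over the same aligned columns mouse has 45 bases, rat 48 and naked mole-rat 34. In these columns the naked mole-rat bases differ from the mouse motif at 5 of the 7 positions. The study also checked sequences by hand. It describes a naked mole-rat sequence that resembles the predicted motif, without oocyte expression of Dnmt3l from it. For guinea pig, absent from the alignment used here, the authors sequenced the intron and report no conservation of the oocyte promoter. The values below concern the factors and not this site.

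Oocytes, fully grown or late in growth, came from untreated animals, and cumulus cells had been stripped off by pipetting. Each of 5 naked mole-rat (Heterocephalus glaber) females aged 1 to 8 years gave 1 library. The single guinea pig library pools oocytes of 3 Cavia porcellus females, 6 to 9 months old, so guinea pig values carry no replicate error. The titles mark replicates 2 and 3 with the letter Y and replicates 4 and 5 with the letter O without explaining the letters, and replicate 1 has no letter and a table of its own. A coruro library was counted over 3 Dnmt3 sequences only and holds none of the 10 genes. Levels are given as CPM, the count times 1000000 over the library's total. They are not corrected for transcript length, and the interval given for guinea pig is a 95% exact Poisson interval that covers counting error only.

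The totals ran from 13512223 to 29561451 counts in naked mole-rat and reached 24515642 in guinea pig, so that 3 counts correspond to 0.101 to 0.222 CPM. Oocyte markers were detected in all 6 libraries: the 8 of 10 listed with an entry reached 1 CPM in each of them. Of the 9 granulosa and cumulus markers with an entry, 8 did so in every naked mole-rat library and 9 in guinea pig. Reaching 1 CPM therefore does not tell these cell types apart. Among the naked mole-rat libraries replicate 1 stood apart. Its 9 granulosa and cumulus markers with an entry summed to 4023 CPM, against 262 to 736 CPM in the other naked mole-rat libraries, and all 9 were highest there. Its oocyte markers summed to 3501 CPM against 6910 to 8722 CPM. Stroma and immune markers were also highest in sum in replicate 1, at 191 and 111 CPM against at most 31.5 and 26.3 CPM, and endothelial markers were not, at 106 CPM against 114 to 276 CPM. The second highest granulosa sum was that of replicate 5, at 736 CPM. In guinea pig the oocyte markers summed to 7265 CPM, granulosa and cumulus markers to 261 CPM and immune markers to 10.6 CPM. Its stroma and endothelial sums, 368 and 586 CPM, were above those of every naked mole-rat library. The part of other cell types in the species contrasts below was not tested. In such bulk samples fewer oocytes and less RNA per oocyte cannot be told apart. Means of the 10 genes and of the count ratios are therefore given with and without replicate 1.

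Every one of the 10 genes was expressed well above the counting limit. The lowest value of any of them in any naked mole-rat library was 31.6 CPM, for Taf7 in replicate 3, and the lowest in guinea pig was 40.1 CPM, also for Taf7. The plot of CPM by gene shows that the libraries differ most for Gtf2a1l and least for Gtf2a1.

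**Figure D1:**
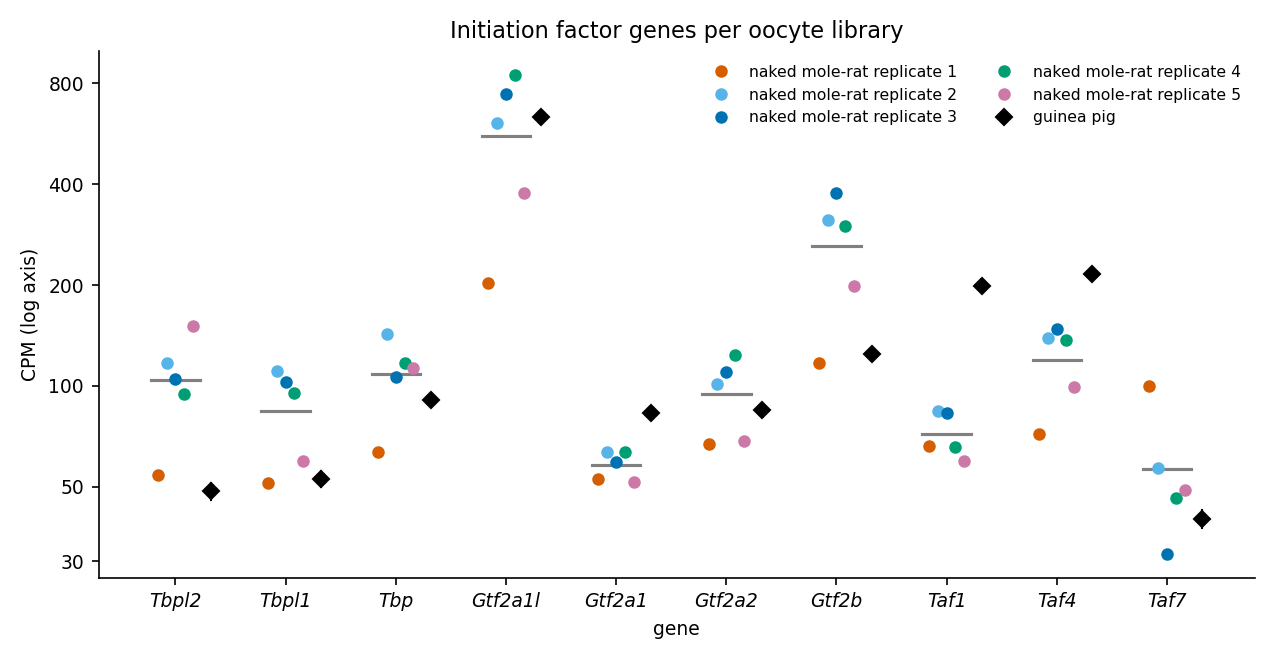
CPM on a log axis of the 10 initiation factor genes in 5 naked mole-rat libraries (circles, coloured by replicate) and 1 guinea pig library (diamonds, with 95% exact Poisson intervals for counting error where they exceed the symbol); grey lines mark the naked mole-rat mean. Gtf2a1 stays between 51.6 and 63.6 CPM in naked mole-rat, whereas Gtf2a1l runs from 202 to 848 CPM, and the guinea pig lies above all 5 naked mole-rat libraries for Gtf2a1, Taf1 and Taf4.

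Tbpl2, which encodes the oocyte relative of TBP, had 54.3, 117, 105, 94.8 and 151 CPM in replicates 1 to 5. Replicate 5 was the highest library, at 2.78 times the lowest, replicate 1. The mean was 104 ± 35.1 CPM (SD, n = 5), and 117 ± 24.3 CPM over the 4 libraries without replicate 1.

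Tbp itself, the core of TFIID in somatic cells, was measured in the same range. Its levels were 63.6, 143, 107, 117 and 113 CPM in replicates 1 to 5, with a mean of 109 ± 28.8 CPM (SD, n = 5), and 120.0 ± 16.0 CPM without replicate 1. Replicates 3, 4 and 5 lay close together, and replicate 1 was again the lowest. In guinea pig oocytes Tbp had 91.0 CPM (87.3 to 94.9).

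Tbpl1 encodes a TBP-like protein that does not bind a TATA box and is known in mouse for its need in sperm formation. Levels of 51.5, 111, 103, 95.6 and 59.7 CPM were measured in replicates 1 to 5, or 84.1 ± 26.7 CPM (SD, n = 5), and 92.2 ± 22.6 CPM without replicate 1. Here replicates 1 and 5 were both low, so that replicate 5 held the highest Tbpl2 and nearly the lowest Tbpl1.

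Dividing the counts of 2 genes within a library removes the scaling between libraries, but such a ratio still holds the lengths of both transcripts, which were not used here. A ratio of 1 therefore need not mark equal numbers of molecules, and the weight below lies on how a ratio differs between libraries of a species. Between species the lengths in the 2 annotations may differ as well, and their part in the guinea pig contrasts was not tested. The ratio of Tbpl2 to Tbp counts was 0.853, 0.819, 0.986, 0.812 and 1.33 in replicates 1 to 5, a mean of 0.960 ± 0.218 (SD, n = 5). Replicate 5 was the only library above 1. Leaving the granulosa-rich replicate 1 out hardly moved the mean, to 0.987 ± 0.242 (SD, n = 4). In an exact sign-flip permutation test, two-sided, the mean log2 ratio of -0.09 gave p = 0.563 (adjusted p = 0.563 over 5 ratios, n = 5), where 0.0625 is the smallest p that 5 libraries allow.

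In guinea pig the Tbpl2 to Tbp ratio was 0.534 (95% exact interval 0.497 to 0.573), below each of the 5 naked mole-rat ratios. With 1 library, the difference between species was not tested. Of all counts on Tbp, Tbpl2 and Tbpl1 together, Tbpl2 took 32.1, 31.6, 33.4, 30.9 and 46.5% in naked mole-rat replicates 1 to 5 and 25.3% in guinea pig. Tbp took 33.9 to 38.5% in naked mole-rat and 47.3% in guinea pig. The share of Tbpl1 was 29.9 to 32.6% in replicates 1 to 4, 18.4% in replicate 5 and 27.4% in guinea pig. Replicates 1 to 4 thus split the family nearly evenly. The share of Tbpl2 was higher than in these 4 libraries in replicate 5 and lower in guinea pig, and the share of Tbpl1 was lower in both.

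Tbpl1 counts were below Tbp counts in all 5 naked mole-rat libraries, with ratios of 0.809, 0.775, 0.963, 0.819 and 0.526 (mean log2 -0.39; exact sign-flip permutation test, p = 0.0625, adjusted p = 0.104, n = 5). Their mean was 0.778 ± 0.158 (SD, n = 5), and 0.771 ± 0.182 without replicate 1. The guinea pig ratio of 0.580 (95% exact interval 0.541 to 0.621) lay within that range.

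TFIIA has a large subunit, made as a precursor from Gtf2a1 or from its germ cell relative Gtf2a1l, and a small subunit from Gtf2a2. Gtf2a1l was the most abundant of the 10 genes by CPM in each library. Replicates 1 to 5 held 202, 609, 740, 848 and 376 CPM of it, with a mean of 555 ± 264 CPM (SD, n = 5), and 643 ± 203 CPM without replicate 1. It stood between the 96.3th and the 99.6th percentile of all entries of a library by CPM. The 2 libraries with the most granulosa marker signal were the 2 with the least Gtf2a1l.

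Gtf2a1, the form used in most tissues, was the steadiest of the set. It had 52.9, 63.6, 59.2, 63.3 and 51.6 CPM in replicates 1 to 5, a mean of 58.1 ± 5.67 CPM (SD, n = 5), or 59.4 ± 5.61 CPM without replicate 1. On the log2 scale its SD over the 5 libraries was 0.14, against a median of 0.49 over the 8486 entries with at least 100 counts in every library. Gtf2a1l, by contrast, had an SD of 0.84 on that scale.

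Gtf2a2 had 67.3, 102, 110, 124 and 68.6 CPM in replicates 1 to 5, or 94.4 ± 25.4 CPM (SD, n = 5), or 101 ± 23.6 CPM without replicate 1. Like Gtf2a1l it was lowest in replicates 1 and 5 and highest in replicate 4, within a narrower span. The count ratio of Gtf2a1l to Gtf2a2 was 3.01 in replicate 1 and 5.48 to 6.83 in the other libraries.

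The ratio of Gtf2a1l to Gtf2a1 counts was 3.83, 9.57, 12.5, 13.4 and 7.30 in replicates 1 to 5, a mean of 9.32 ± 3.91 (SD, n = 5), or 10.7 ± 2.79 without replicate 1. Gtf2a1l was the larger count in 5 of 5 libraries, with a mean log2 ratio of 3.09 (exact sign-flip permutation test, two-sided, p = 0.0625, the smallest that 5 libraries allow, adjusted p = 0.104). As a share of the counts on both genes, Gtf2a1l made up 79.3% in replicate 1 and 87.9 to 93.0% in the others. The guinea pig share of 88.4% (95% Clopper-Pearson interval 87.9 to 88.9%) and ratio of 7.64 (7.290 to 8.001) fell inside the naked mole-rat range. Transcripts that run from Ston1 into Gtf2a1l are known in human. The Ston1 entry held 20 to 530 counts per naked mole-rat library and 71 in guinea pig, against 2735 to 23770 and 15500 for Gtf2a1l, and reads of such transcripts cannot be told apart here.

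**Figure D2:**
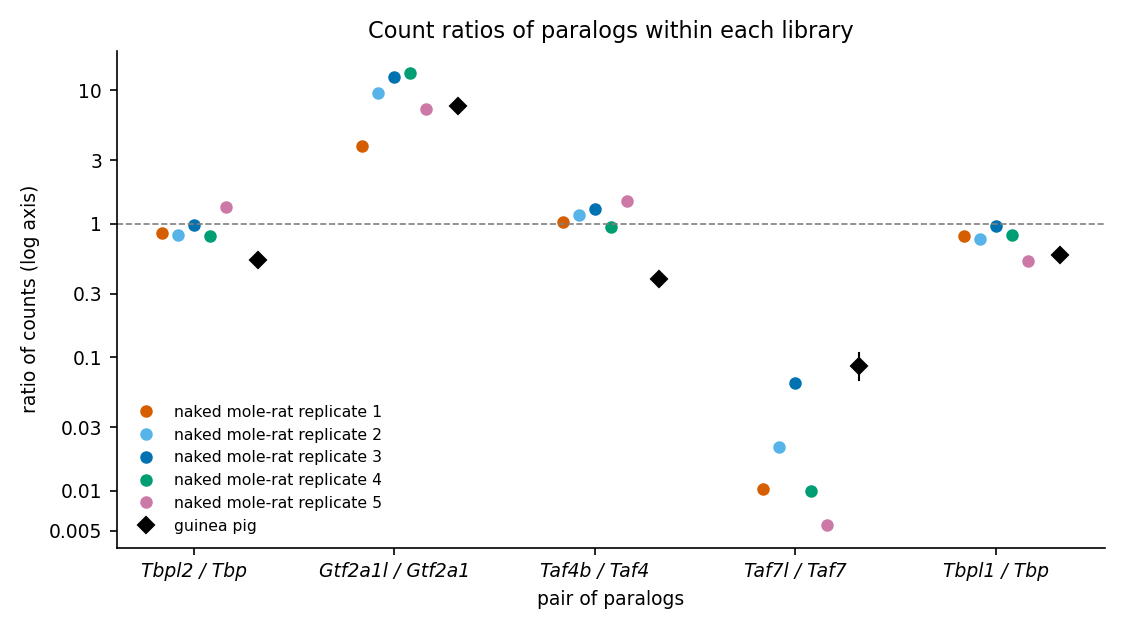
Ratio of counts of 2 paralogs within each library, on a log axis, for 5 naked mole-rat libraries (circles) and 1 guinea pig library (diamonds, with 95% exact binomial intervals); the dashed line marks equal counts, which need not mean equal numbers of molecules. The guinea pig lies below every naked mole-rat library for Tbpl2 to Tbp and Taf4b to Taf4, and inside the range for Gtf2a1l to Gtf2a1 and Tbpl1 to Tbp.

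Tbpl2 and Gtf2a1l did not follow one another between libraries. Their count ratio was 0.268, 0.193, 0.142, 0.112 and 0.401 in replicates 1 to 5, and 0.0768 (95% exact interval 0.0724 to 0.0815) in guinea pig. Relative to Gtf2a1l, Tbpl2 was therefore highest in the 2 libraries with the most granulosa signal. Their levels beside the granulosa sum differ, as the plot against granulosa markers shows: Gtf2a1l was low in both replicates 1 and 5, Tbpl2 was lowest in one and highest in the other, and Gtf2a1 hardly moved. The part of other cell types in these differences was not tested.

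**Figure D3:**
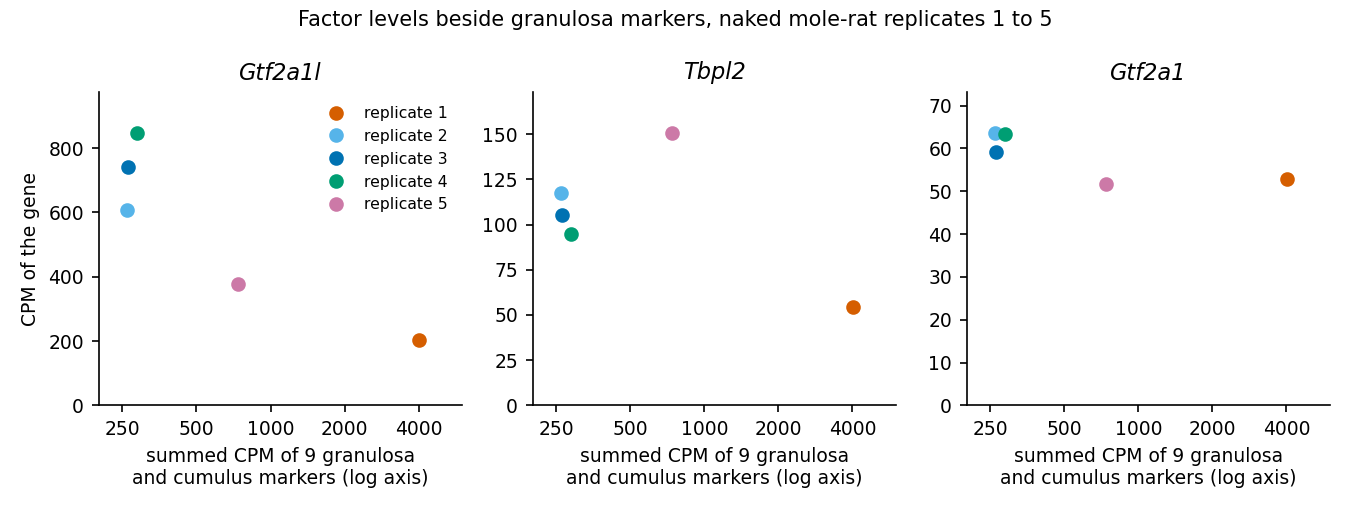
CPM of Gtf2a1l, Tbpl2 and Gtf2a1 (vertical axes, each from 0) against the summed CPM of 9 granulosa and cumulus markers (log axis) in the 5 naked mole-rat libraries, coloured by replicate. Replicates 2 to 4 have marker sums of 262 to 285 CPM, replicate 5 has 736 CPM and replicate 1 has 4023 CPM, and Gtf2a1l falls to 376 and 202 CPM in the last 2 while Tbpl2 is 151 and 54.3 CPM.

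Gtf2b encodes TFIIB, which binds TBP on DNA and sets the polymerase in place. Its levels in replicates 1 to 5 were 117, 312, 376, 300 and 198 CPM, a mean of 261 ± 103 CPM (SD, n = 5). The order of its libraries resembled that of Gtf2a1l, with replicates 1 and 5 low. Without replicate 1 the mean was 297 CPM.

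Among the TFIID subunits, Taf4, a structural subunit that contacts activators, had 72.1, 139, 148, 137 and 99.6 CPM in replicates 1 to 5, or 119 ± 32.3 CPM (SD, n = 5), and 131 ± 21.5 CPM without replicate 1. Taf1, the largest subunit, varied little, at 66.1, 84.3, 82.8, 65.8 and 59.6 CPM, or 71.7 ± 11.1 CPM (SD, n = 5), and 73.1 ± 12.3 CPM without replicate 1. Its SD of log2 CPM was 0.22, next to that of Gtf2a1 among the 10 genes.

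Taf7, which binds TAF1 and holds back its activity, ran the other way. Replicates 1 to 5 had 99.8, 57.0, 31.6, 46.2 and 49.0 CPM, and its mean of 56.7 ± 25.8 CPM (SD, n = 5) fell to 46.0 CPM without replicate 1. It was the only one of the 10 genes with its highest value in replicate 1.

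Replicate 1 was below all 4 other libraries for 7 of the 10 genes, namely Tbpl2, Tbpl1, Tbp, Gtf2a1l, Gtf2a2, Gtf2b and Taf4. Over the 14452 entries with at least 100 counts in sum this was so for 24.3%, and replicate 1 was above all others for 42.2%. Set against the average of replicates 2 to 5, replicate 1 had a median log2 difference of -0.85 over the 10 genes and 0.22 over all entries. Scaling by trimmed means (TMM) took the latter to -0.13, and the 7 genes became 9 of 10 with Gtf2a1 and Taf1 added, against 33.4% of all entries. This contrast rests on 1 library, which has a table of its own and the granulosa signal given above, and their part in the result was not tested.

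TAF4B and TAF7L are relatives of TAF4 and TAF7 with known roles in germ cells, TAF4B in the mouse ovary. Taf4b had 74.6, 163, 191, 129 and 149 CPM in replicates 1 to 5, and was with 141 ± 43.7 CPM (SD, n = 5) the highest entry of the 17 TFIID genes listed, with 158 ± 26.4 CPM without replicate 1. Its counts were close to those of Taf4, with ratios of 1.03, 1.17, 1.29, 0.941 and 1.49 (mean log2 0.23; exact sign-flip permutation test, p = 0.188, adjusted p = 0.234, n = 5). Their mean was 1.19 ± 0.217 (SD, n = 5), and 1.22 ± 0.231 without replicate 1. In guinea pig the ratio was 0.384 (95% exact interval 0.364 to 0.404), below every naked mole-rat library, since Taf4b was lower there at 82.8 CPM, within the naked mole-rat range, and Taf4 was higher at 216 CPM.

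Taf7l was scarcely detected, with 8 to 33 counts or 0.271 to 2.03 CPM per naked mole-rat library and 84 counts or 3.43 CPM in guinea pig. Its ratio to Taf7 counts was 0.00552 to 0.0642 in naked mole-rat (mean 0.0223 ± 0.0241, SD, n = 5, or 0.0252 ± 0.0268 without replicate 1, and mean log2 -6.00, below 1 in 5 of 5 libraries; exact sign-flip permutation test, p = 0.0625, adjusted p = 0.104). In guinea pig it was 0.0855 (95% exact interval 0.0676 to 0.107).

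Guinea pig levels were set beside naked mole-rat levels for genes matched by symbol, as a description without a test. Of the 10 genes, 0 lay past the naked mole-rat range by a factor of more than 4. The background was 17.3% of 10279 matched genes, 8.95% above and 8.35% below. The matched genes counted here had reached 100 counts in at least 1 of the species (for naked mole-rat, in each library). With so few genes, 0 of 10 is not read as a departure from that share. The median log2 ratio of guinea pig to the naked mole-rat mean was -0.21 over the 10 genes and 0.12 over all matched genes.

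Taf1 had 198 CPM in guinea pig (193 to 204), which is 2.35 times the highest naked mole-rat library, and was alone among the 10 in passing 2 times, as did 33.7% of matched genes. Taf4 with 216 CPM (210 to 222) and Gtf2a1 with 82.8 CPM (79.2 to 86.5) also lay above all 5 naked mole-rat libraries, at 1.45 and 1.30 times the highest. Thus 3 of 10 genes lay above the naked mole-rat range, against 37.2% of matched genes.

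Tbpl2 was the only gene of the set below the range, with 48.6 CPM (45.9 to 51.4) in guinea pig against 54.3 CPM in replicate 1, the nearest library, and its log2 ratio to the naked mole-rat mean was -1.10. The background for this side was 29.1%. With TMM or DESeq2 size factors Tbpl2 fell inside the range and the count was 0. Without replicate 1 the guinea pig lay below all 4 remaining libraries for Tbpl2, Tbpl1, Tbp and Gtf2b, 4 of 10 genes against 32.8% of matched genes, and above them for Taf1, Taf4 and Gtf2a1 as before, against 46%. The nearest of those libraries had 94.8 CPM of Tbpl2, 59.7 of Tbpl1, 107 of Tbp and 198 of Gtf2b, where guinea pig had 48.6, 52.7 (49.9 to 55.7), 91.0 and 124 CPM (119.8 to 129).

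Gtf2a1l, in contrast, lay within the naked mole-rat range, which was wide at 202 to 848 CPM. Its 632 CPM in guinea pig (622 to 642) lay between naked mole-rat replicates 2 and 3, at the 99.4th percentile of guinea pig entries by CPM. Gtf2a2 had 84.6 CPM (81.0 to 88.3) and Taf7 40.1 CPM (37.6 to 42.7) there, both within the naked mole-rat range.

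**Figure D4:**
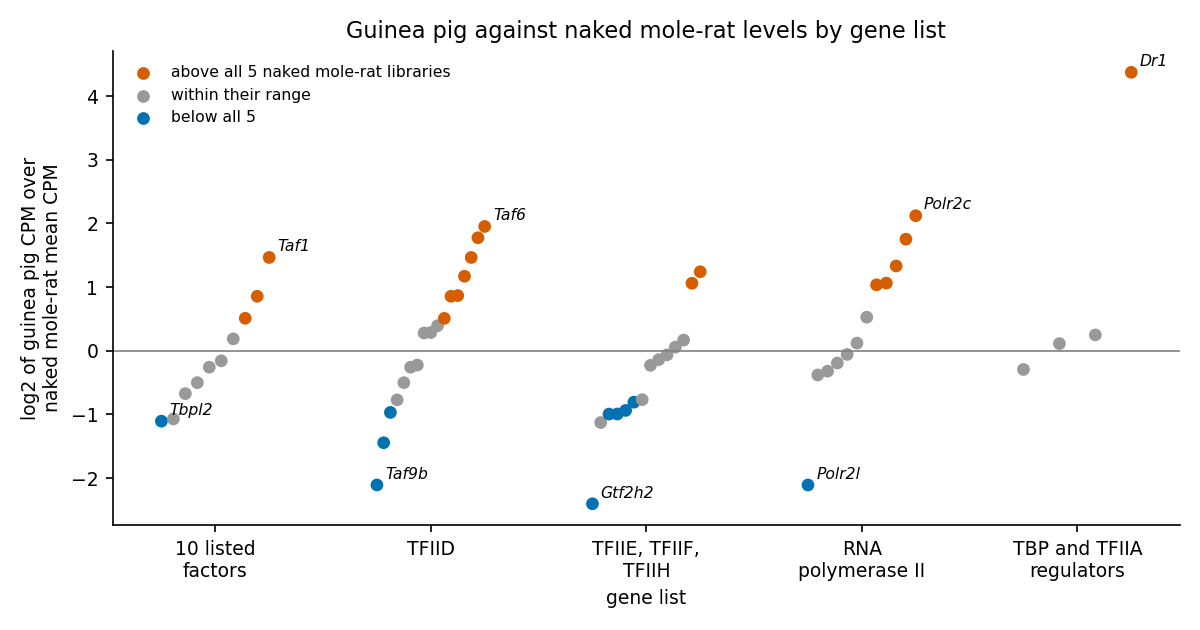
Log2 ratio of guinea pig CPM to the naked mole-rat mean CPM for the 10 listed factors and 4 further gene lists, each dot a gene, sorted within its list; colour says whether the single guinea pig library lies above, within or below the 5 naked mole-rat libraries. Labelled genes are mostly the extremes of a list, chosen after their values were seen, the TFIID list repeats Tbp, Taf1, Taf4 and Taf7 and shows Taf7l although it missed the count minimum, and Dr1 stands alone at 4.37.

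The rest of the initiation machinery was read from 4 lists that hold 43 genes besides the 10. Of these, 42 reached 1 CPM in every naked mole-rat library, the exception being Taf7l. In the list of 17 TFIID genes, with Tbp, Taf1, Taf4 and Taf7 among them, 16 passed the count minimum for the species contrast, and guinea pig lay above the naked mole-rat range for 6, below for 3 and within for 7, where matched genes as a whole had 37.2% above, 29.1% below and 33.7% within. The 14 genes of TFIIE, TFIIF and TFIIH, which open the promoter and release the polymerase, had 2 above, 5 below and 7 within the range. Their highest entry was Gtf2e1, a TFIIE subunit, at 418 ± 137 CPM in naked mole-rat (SD, n = 5) and 192 CPM in guinea pig, and the lowest was Gtf2h4 of TFIIH at 9.78 ± 4.18 CPM.

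The 12 polymerase II subunit genes had 5 above, 1 below and 6 within, to be read against those same shares of 37.2%, 29.1% and 33.7%. Polr2a, the catalytic subunit, had 301, 222, 200, 191 and 261 CPM in replicates 1 to 5 and 482 CPM in guinea pig, and had the highest naked mole-rat mean of the list at 235 ± 45.6 CPM (SD, n = 5), although Polr2b exceeded it in replicates 3 and 4. Polr2h was the lowest at 12.2 ± 6.33 CPM (SD, n = 5). Of these 12 genes 0 were lowest in replicate 1, against 24.3% of all entries, and 4 were highest there, against 42.2%.

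The only gene of the 4 lists past 4 times between species was Dr1, which encodes a subunit of NC2, a repressor that sits on TBP and keeps TFIIA and TFIIB away. It had 27.5, 16.6, 17.5, 18.9 and 10.96 CPM in naked mole-rat replicates 1 to 5, and 379 CPM in guinea pig (371 to 387), 13.8 times the highest naked mole-rat library. Whether the Dr1 entries of the 2 annotations cover the same transcripts was not tested. Drap1, for its partner subunit, had 26.03 to 54.03 CPM in naked mole-rat and 44.2 CPM in guinea pig. Btaf1, an ATPase that takes TBP off DNA, had 48.1 ± 18.5 CPM (SD, n = 5) and 57.1 CPM in guinea pig. Tasp1, for the protease that cuts the TFIIA precursor, was the lowest of this list at 5.75 ± 3.88 CPM (SD, n = 5) and 4.69 CPM in guinea pig.

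Libraries lettered Y and O were compared because the titles set them apart. In edgeR's quasi-likelihood test with Benjamini-Hochberg adjustment, 0 of the 10 genes and 0% of the 15079 entries tested passed an adjusted p of 0.05. At an unadjusted p under 0.05 there were 0 of the 10 genes and 707 entries (4.69%), and DESeq2 called 0 of the 10 genes at 0.487% of entries. The log2 difference of O against Y ran from -0.57 for Gtf2b (SE 0.34) to 0.01 for Tbpl2 (SE 0.35), with a median of -0.24 over the 10 genes and 0.05 over all entries. Both O libraries lay below both Y libraries for Tbpl1, Gtf2b, Taf1 and Taf4, as they did for 11.7% of entries. With 2 libraries a letter the test was weak. With simulated counts of like spread it found 0 of 67 genes that had been changed 2-fold and 17 of 67 changed 4-fold. The differences given above for the 10 genes were all smaller than 2-fold. The result also rested on 1 library: without replicate 4, Gtf2a1l (log2 -1.003, edgeR adjusted p = 0.0140) and Gtf2b (log2 -0.96, edgeR adjusted p = 0.0327) passed the threshold, as did 3.05% of entries, and without replicate 5 the difference of Gtf2a1l was 0.28 and did not pass.

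Genes with a like profile were sought among 7835 others with a symbol and at least 100 counts in every naked mole-rat library, by the root mean square difference of centred log2(CPM + 1) over the 5 libraries. Nearest to Tbpl2 were Lsm10 (0.028), Dedd (0.044), Rab15 (0.052), CUNH12orf75 (0.056) and Lmcd1 (0.073). The nearest of the other 9 factors was Tbp, at rank 550 with 0.265, and Gtf2a1l stood at rank 4494 with 0.652. Nearest to Gtf2a1l were Lca5 (0.061), Ube2d3 (0.062), Upf3b (0.079), Rab11a (0.082) and Sass6 (0.088), while Gtf2b stood at rank 120 with 0.243 as the nearest of the 10. With 5 libraries and so many genes some profiles lie close in any case, and these distances are a description.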

How the data were processed

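Oocyte RNA was depleted of ribosomal RNA and sequenced from directional libraries. Reads had been trimmed by Trim Galore and aligned by HISAT2, to HetGla_female_1.0 for naked mole-rat or Cavpor3.0 for guinea pig, and SeqMonk gave the raw counts per gene that the authors deposited. The submitters' processing notes name Trim Galore 0.6.1 and HISAT2 2.1.0, whereas the study's methods state other versions of both tools, and which were used was not settled here. Not given in the sources used here were the annotation and the treatment of strand and multiply mapped reads.

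Counts were divided by column totals to give CPM. Genes were matched between species by symbol without case, leaving out 26 date-like names per table. Sign-flip tests added 0.5 to each count. Replicates 2 to 5 were compared by letter with edgeR 4.0.16 (TMM, filterByExpr) in R 4.3.3, and with DESeq2 1.42.0, over all entries. The species rule, the sign-flip test and the edgeR comparison were tried on simulated counts, and the other steps were not. All pairs of libraries differed beyond sampling noise (chi-square per gene at least 48.6), so none was counted as a duplicate. Nothing beyond 1 female per library shows what the replicates share, so p-values measure the spread between these libraries.

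The 10 genes and the lists were chosen with earlier results of these data known. Named were all 10 genes, Taf4b and Taf7l, the highest and lowest of each list by naked mole-rat mean, genes past 4 times between species, and the 5 nearest profiles of Tbpl2 and Gtf2a1l. Drap1, Polr2b and Ston1 were added after their values were seen. The counts of genes above or below the naked mole-rat range were also added then. Alternatives were other scalings, filters, folds and pseudocounts, and leaving out each replicate. No protein or promoter sequence of these genes was used here.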

Additional observations from a re-analysis of the deposited data

Results flagged for a closer look

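Of 17 sets of 5 naked mole-rat values examined (the 10 genes, Taf4b, Taf7l and 5 count ratios), 1 held a library far from the others. The measure was the gap to the neighbour over the whole range. The ratio of Taf7l to Taf7 was highest in replicate 3, at 0.0642, with a gap of 0.733 of the range. Chance gives such a gap in about 1 of 20 groups, so 1 among the 17 sets is near that rate. The gap was taken on the ratio itself and not on its log2, and the ratio rests there on 28 counts of Taf7l. No explanation was tested.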

How the results depend on the processing

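Without single replicates the mean log2 of Tbpl2 to Tbp was -0.21 to -0.03, close to equal counts. With that limit, all 5 count ratios kept their direction under a pseudocount of 1 and without each replicate in turn. Their exact permutation p says nothing about stability, since 0.0625 is the smallest with 5 libraries and 0.125 with 4. TMM moved the means of the 10 genes by -2.93 to 4.38%, and leaving out 1 replicate moved them by at most 2.81% for Gtf2a1 and 19.0% for Taf7. The count of genes past 4 times between species was 0 under every scaling and filter and without each replicate, and 1 (Taf1) at 2 times. The count below the naked mole-rat range was 1, and 0 with TMM or DESeq2 size factors, and 1 to 4 when single replicates were left out. The count above it was 3 throughout. For the letters, 0 of 10 genes passed in edgeR without a filter and in DESeq2. Leaving out a single replicate leaves 1 library in a letter. The log2 difference was then -1.003 to 0.28 for Gtf2a1l and -0.96 to -0.25 for Gtf2b. Over all entries edgeR called 0 with the filter, and 64 higher in O and 2 higher in Y without it, and DESeq2 69 and 3. No paired analysis was possible because no replicate number is shared between letters and guinea pig has 1 library. Ratios per transcript length were not run, since no transcript lengths were used here. For guinea pig, 1 library limits every comparison.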
